A study of Rattus norvegicus with 8 samples.

Results

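Aminoacyl-tRNA synthetases were examined in rat spinal cord, as a set of 36 listed genes that comprises 20 enzymes of the cytosol and 16 of the mitochondrion. Genes entered the set by name and not through a measured value, but the set was listed with earlier results of these arrays known. A gene entered when a probe set (the group of probes summarised for a transcript) carried its symbol and no other, and probe sets of the same gene were averaged. This gave 30 measured genes, 19 cytosolic and 11 mitochondrial, of 14506 genes in all. Cars2, Ears2, Iars2, Mars2 and Wars2 were matched to no probe set and were not analysed here.

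All tissue came from adult male Wistar rats with L5 spinal nerve transection, so injury was common to both groups and no uninjured animals were compared. The HDACI group (n = 4) received MS-275, which inhibits histone deacetylases of class I, at 30 nmol per day by an intrathecal osmotic pump. The vehicle group (n = 4) received the solvent, DMSO in saline, by the same route. Dorsal ipsilateral lumbar cord was taken at day 14 and each sample was hybridised to its own Affymetrix Rat Gene 1.0 ST array. The tissue is a mixture of all cord cell types, so that fewer cells of a type and less RNA per cell cannot be told apart in any result here. Values are log2 signals after RMA, which corrects background, makes the arrays' signal distributions alike and summarises each probe set. A difference of 0.10 or 0.20 on this scale is small.

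Each synthetase couples an amino acid to its transfer RNA, the step that supplies ribosomes with charged tRNA. Cytosolic enzymes serve the ribosomes that translate nuclear genes, and a separate, nuclear-encoded set is imported into mitochondria, where it serves translation of the mitochondrial genome. Gars1 and Kars1 are exceptions, because each encodes the enzyme of both compartments. Several cytosolic enzymes, among them Eprs1, Iars1, Lars1, Mars1, Qars1, Rars1 and Kars1, are held together in the multisynthetase complex by scaffold proteins. When amino acids run short, the transcription factor ATF4 raises many cytosolic synthetase genes through a short promoter element that also lies near other amino acid response genes.

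That element was searched for as TGATGNAA, or TTNCATCA when read on the other strand, in RefSeq promoter windows of the GRCr8 assembly that run from 250 bases before to 50 after the start site. Windows were found for 28 of the 30 measured genes, and not for Gars1 and Rars1. Of 17 cytosolic genes 7 held a match (41.2%), and of 11 mitochondrial genes 0 did. Among all 33469 windows, 1332 (3.98%) held a match. A match is a run of letters and not a shown binding site. The sequences follow because they set part of the cytosolic genes apart in their promoters, and the differences of genes with and without a match are compared further on. Each is written 5′ to 3′ on the strand of the gene with the match in capitals, and positions are counted from the start site, whose first transcribed base is 1.
Nars1, chr18:60275783-60275842, minus strand, match at -14: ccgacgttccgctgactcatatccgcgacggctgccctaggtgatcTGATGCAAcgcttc
Mars1, chr7:65023754-65023813, minus strand, match at -17: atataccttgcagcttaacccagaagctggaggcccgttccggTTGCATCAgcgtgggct
Iars1, chr17:15193653-15193712, minus strand, match at -24: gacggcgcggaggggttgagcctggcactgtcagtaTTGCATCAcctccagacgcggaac
Tars1, chr2:62114803-62114862, minus strand, match at -27: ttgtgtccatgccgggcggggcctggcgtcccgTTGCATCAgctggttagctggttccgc
Aars1, chr19:55908344-55908403, plus strand, match at -112: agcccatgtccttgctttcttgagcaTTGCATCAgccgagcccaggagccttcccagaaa
Cars1, chr1:208225334-208225363, minus strand, match at 18: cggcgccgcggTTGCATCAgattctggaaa
Yars1, chr5:146820183-146820212, plus strand, match at 39: cggagctacgagctcagcTGATGCAAcctg
Wars1, chr6:133571646-133571705, minus strand, no match: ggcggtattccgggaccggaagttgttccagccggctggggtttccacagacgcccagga
Vars1, chr20:3824952-3825011, minus strand, no match: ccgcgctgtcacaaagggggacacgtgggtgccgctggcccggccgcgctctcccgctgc

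In Nars1, Mars1, Iars1 and Tars1 the match lay within 27 bases upstream of the start site. Aars1 held a further match, of TTTCATCA, at position 10. Wars1 and Vars1, the other genes called lower besides Nars1 and Yars1, are shown for contrast.

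Cytosolic synthetases tended towards slightly lower signal with HDACI. All 19 had a difference (HDACI minus vehicle) below 0 on the log2 scale, from -0.19 for Wars1 to -0.0046 for Kars1, with a median of -0.09; Kars1 turned to 0.0041 after a further quantile normalization. Over all genes 57.9% lay below 0 and the median was -0.01, and 17 of the 19 lay below that median. In a limma fit over all 14506 genes, Nars1, Wars1, Vars1 and Yars1 were called lower at an unadjusted p under 0.01, the threshold of the study, which is 21.1% of the cytosolic genes against 0.855% of all genes called lower. At an unadjusted p under 0.05 the count was 8 of 19 against 4.96% of all genes. Of the 19, 18 lay above the median signal of all genes, where these shares were 1.19% and 6.48%.

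No synthetase passed adjustment over all genes, where the smallest adjusted p was 0.610 in limma and 0 of 14506 genes passed. Without HDACI replicate 1, 2 or 3, or vehicle replicate 2 or 3, the count at an unadjusted p under 0.01 was 2 of 19, while the cytosolic median stayed between -0.10 and -0.08 whichever array was left out.

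**Figure D1:**
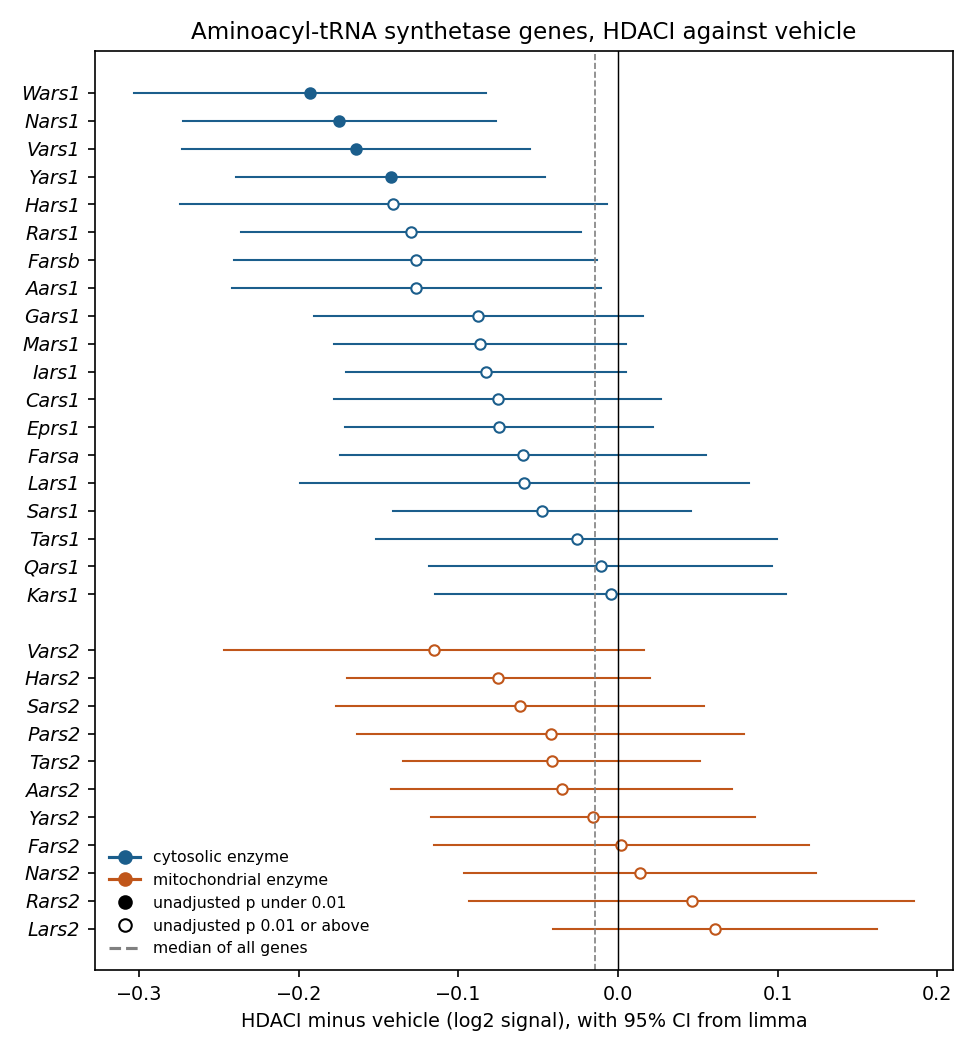
Difference in log2 signal between HDACI and vehicle arrays (n = 4 and 4; x axis) for each measured synthetase gene (y axis), with 95% confidence intervals from limma; filled points had an unadjusted p under 0.01. All 19 cytosolic points lie left of 0, and the 11 mitochondrial points lie on both sides, from -0.12 for Vars2 to 0.06 for Lars2.

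Wars1, which charges tryptophan, had the lowest difference among the members. Its log2 signal was 11.50, 11.64, 11.45 and 11.49 on vehicle arrays 1 to 4 and 11.28, 11.35, 11.36 and 11.31 on HDACI arrays 1 to 4. Every HDACI array lay below every vehicle array, and vehicle replicate 2 stood highest. The difference was -0.19 (standard error 0.05, 95% confidence interval -0.30 to -0.08, unadjusted p = 0.00316 from limma), or 12.5% less signal when written as a fold of 0.875.

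Nars1, the asparaginyl enzyme, read 11.60, 11.72, 11.63 and 11.69 with vehicle and 11.53, 11.44, 11.47 and 11.50 with HDACI. Again no array of one group reached the other. The difference was -0.17 (standard error 0.04, unadjusted p = 0.00283 from limma). This call held without each array in turn, with an unadjusted p of at most 0.00923 from limma, and that of Wars1 was lost only without HDACI replicate 1 (unadjusted p = 0.0107 from limma).

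Vars1, the valyl enzyme, read 9.51, 9.59, 9.58 and 9.44 with vehicle and 9.38, 9.34, 9.31 and 9.43 with HDACI. The groups met almost at vehicle replicate 4 and HDACI replicate 4. The difference was -0.16 (standard error 0.05, unadjusted p = 0.00759 from limma).

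Yars1, the tyrosyl enzyme, read 10.48, 10.49, 10.49 and 10.45 with vehicle and 10.42, 10.34, 10.32 and 10.26 with HDACI. Its vehicle arrays were close together (SD 0.02) and its HDACI arrays less so (SD 0.06), without overlap. The difference was -0.14 (standard error 0.04, unadjusted p = 0.00870 from limma). Calls on Vars1 and Yars1 were less stable, since Vars1 kept an unadjusted p under 0.01 in 2 of the 8 fits that left out an array and Yars1 in 1. For all 4 genes the exact two-sided permutation p over arrays was 0.0286, the smallest that 4 against 4 arrays allow.

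**Figure D2:**
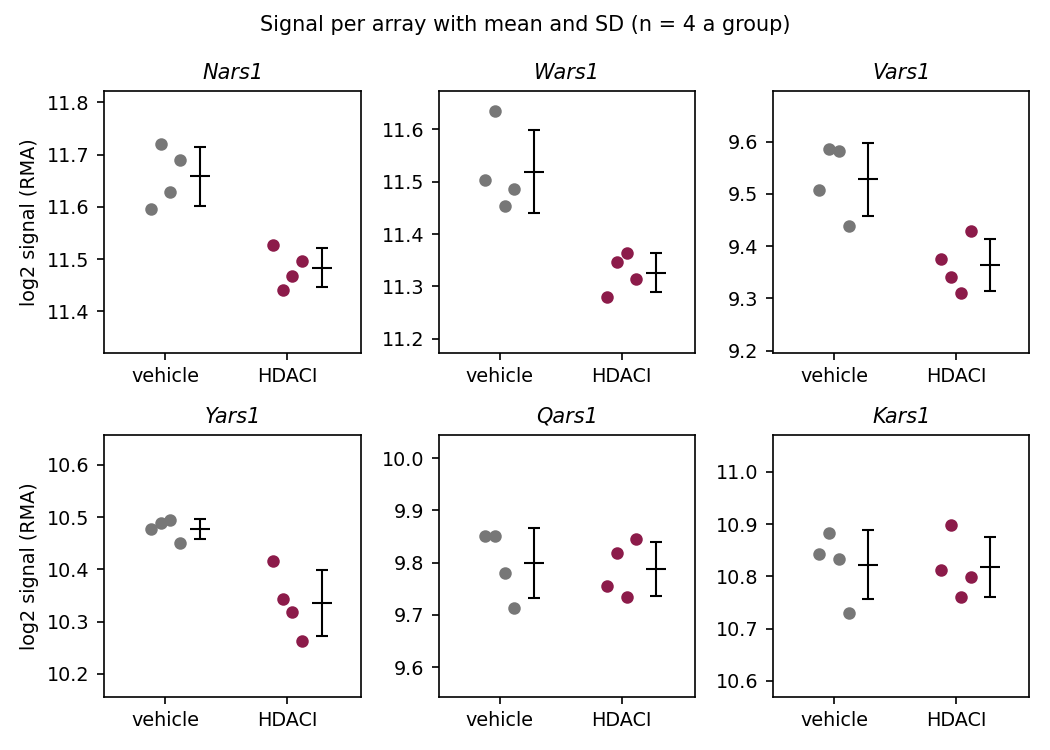
Log2 signal on each array (points; y axis, each panel spanning 0.5) in the vehicle and HDACI groups for the 4 genes called lower and for Qars1 and Kars1, the cytosolic genes with the largest p; bars give the mean and SD (n = 4). HDACI points lie below all vehicle points for Nars1, Wars1, Vars1 and Yars1 and are interspersed with them for Qars1 and Kars1.

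The other 15 cytosolic genes had a median difference of -0.08. Rars1 (arginyl, -0.13), Farsb (-0.13), the β subunit of the phenylalanyl enzyme, Aars1 (alanyl, -0.13) and Hars1 (histidyl, -0.14) had an unadjusted p between 0.0220 and 0.0410 in limma. Groups did not overlap for Aars1 and for Iars1 (isoleucyl, -0.08), which made 6 of 19 cytosolic genes with every HDACI array below every vehicle array. The share was 3.6% over all genes and 5.43% over genes above the median signal. Farsa, the α subunit, had -0.06 (95% confidence interval -0.17 to 0.05).

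Hars1 was the only member with more than 1 probe set. The probe sets stood at different signals, with vehicle means of 10.26 and 7.35, and had differences of -0.14 (standard error 0.06) and -0.15 (standard error 0.07).

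Differences of Mars1 (methionyl), Gars1 (glycyl), Cars1 (cysteinyl), Eprs1 (glutamyl and prolyl), Lars1 (leucyl) and Sars1 (seryl) ran from -0.09 to -0.05, with intervals that held 0. Tars1 (threonyl) had -0.03, and its sign turned to 0.02 without vehicle replicate 2.

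Qars1 and Kars1 had the largest p among cytosolic members. Qars1, the glutaminyl enzyme, read 9.85, 9.85, 9.78 and 9.71 with vehicle and 9.76, 9.82, 9.74 and 9.84 with HDACI. Kars1, the lysyl enzyme, read 10.84, 10.88, 10.83 and 10.73 with vehicle and 10.81, 10.90, 10.76 and 10.80 with HDACI. For both, the arrays of the groups were interspersed, and the 95% confidence intervals of the difference were -0.12 to 0.10 and -0.11 to 0.11 on the log2 scale.

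Both belong to the multisynthetase complex. The 7 measured members of the complex had a median difference of -0.07 and 0 of them were called at an unadjusted p under 0.01 in limma, with 1 (Rars1) at an unadjusted p under 0.05. The 12 cytosolic genes outside it had a median of -0.13, 4 called lower at the stricter threshold and 7 at the wider. Over all genes 0.855% and 4.96% were called lower at these thresholds, so the counts inside the complex are near what that share gives for 7 genes. Whether the 2 sets differ was not tested. By catalytic fold, the class I enzymes (10 genes) had a median of -0.08 and the class II enzymes (9 genes) -0.09. Eprs1 was counted in class I for its glutamyl part, although its prolyl part is of class II.

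Among the 11 measured mitochondrial synthetases 7 lay below 0 and 4 above, with a median of -0.04. None was called at an unadjusted p under 0.01 or under 0.05 in limma, against 1.46% and 7.75% of all genes called in either direction, and the smallest unadjusted p was 0.0796, for Vars2. Groups overlapped for all 11 mitochondrial genes, where 3.6% of all genes were lower and 1.42% higher without overlap. With 11 genes, counts of 0 are near these shares and say nothing particular of the mitochondrial enzymes.

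Vars2, the mitochondrial valyl enzyme, read 8.86, 8.66, 8.88 and 8.80 with vehicle and 8.75, 8.64, 8.62 and 8.74 with HDACI. Vehicle replicate 2 lay among the HDACI arrays. The difference was -0.12 (95% confidence interval -0.25 to 0.02).

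Hars2, the mitochondrial histidyl enzyme, read 9.07, 9.05, 9.03 and 9.00 with vehicle and 8.91, 9.00, 8.92 and 9.01 with HDACI. HDACI replicates 2 and 4 lay above vehicle replicate 4, the lowest of its group. Its difference was -0.07 (95% confidence interval -0.17 to 0.02). In the RefSeq windows the start sites of Hars1 and Hars2 lie 144 bases apart on opposite strands, so that the genes share the sequence between them, and the element was matched in neither window.

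Lars2, the mitochondrial leucyl enzyme, was the member with the highest difference, 0.06 (95% confidence interval -0.04 to 0.16). It read 8.06, 8.01, 8.18 and 8.07 with vehicle and 8.12, 8.15, 8.18 and 8.13 with HDACI. Apart from vehicle replicate 3, the vehicle arrays lay below the HDACI arrays.

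Sars2, the mitochondrial seryl enzyme, read 8.90, 8.84, 8.87 and 8.90 with vehicle and 8.85, 8.68, 8.88 and 8.85 with HDACI, a difference of -0.06. Its HDACI replicate 2 was lower than the other 7 arrays. The remaining mitochondrial genes, Aars2, Fars2, Nars2, Pars2, Rars2, Tars2 and Yars2, ran from -0.04 to 0.05, each with overlapping groups.

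Averaged over the 19 cytosolic genes, the signal was 10.21 ± 0.04 (SD, n = 4) with vehicle and 10.11 ± 0.02 with HDACI. The 4 vehicle arrays read 10.19, 10.27, 10.20 and 10.18 and the 4 HDACI arrays 10.14, 10.10, 10.11 and 10.11, without overlap. Leaving out Nars1, Wars1, Vars1 and Yars1, the mean of the other cytosolic genes was 10.05 ± 0.04 with vehicle and 9.98 ± 0.02 with HDACI, also without overlap. These means were not centred on array medians. Medians over all genes were 8.63, 8.65, 8.58 and 8.56 with vehicle and 8.58, 8.64, 8.59 and 8.61 with HDACI. With arrays centred on these medians, 3 cytosolic genes were called lower at an unadjusted p under 0.01 in limma. The cytosolic median difference was then -0.09.

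The mean over mitochondrial genes was 8.43 ± 0.03 with vehicle and 8.40 ± 0.02 with HDACI, and the groups overlapped. Subtracting the mitochondrial from the cytosolic mean on each array gave 1.73, 1.85, 1.78 and 1.78 with vehicle and 1.74, 1.72, 1.70 and 1.69 with HDACI. HDACI arrays lay lower on average, by 0.07, but HDACI replicate 1 stood above vehicle replicate 1. The median difference of cytosolic genes was below that of mitochondrial genes by 0.0515 on the log2 scale, and no test was run on it because the genes were listed with results of these arrays known. Probe sets of the mitochondrial enzymes also had lower signals (means from 7.42 to 9.00, against 8.52 to 11.57 for the cytosolic ones), and the part of signal level in the contrast was not tested. Among all genes above the median signal, 1.19% were called lower at an unadjusted p under 0.01 and 6.48% at an unadjusted p under 0.05, and 5.43% were lower without overlap.

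**Figure D3:**
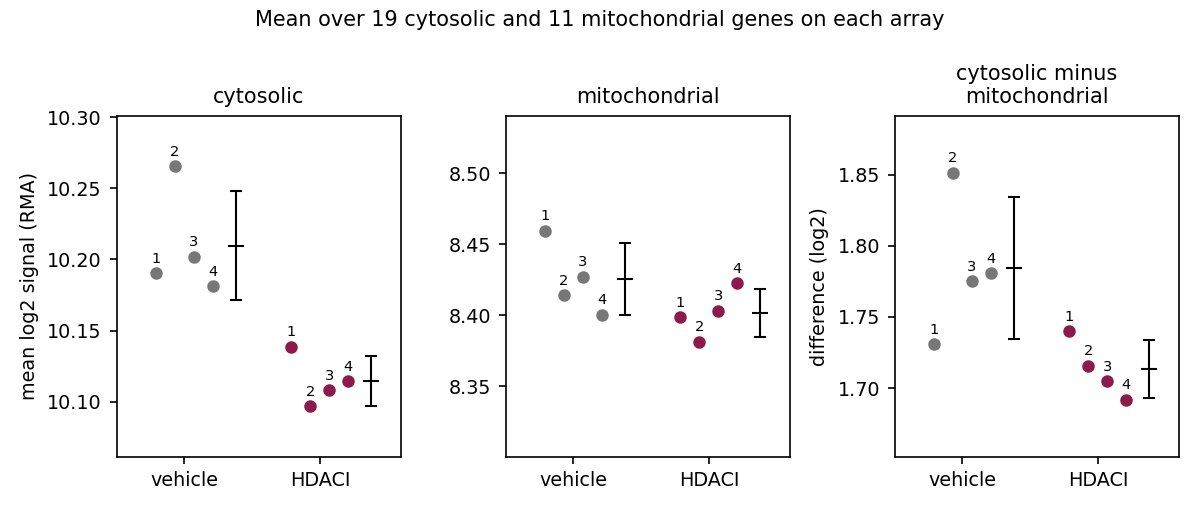
Mean log2 signal over the 19 cytosolic genes, over the 11 mitochondrial genes, and the first minus the second (y axes, each spanning 0.24), on every array, with replicate numbers beside the points and the mean and SD (n = 4) as bars. Cytosolic means separate the groups, and mitochondrial means and the subtraction overlap between them.

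Cytosolic and mitochondrial genes that share a name stem were compared for 10 amino acids. Proline was not among these 10, because its cytosolic enzyme is part of Eprs1 (-0.07, against Pars2 at -0.04). In 8 of the 10 the cytosolic gene had the lower difference. The gap was largest for asparagine, where Nars1 had -0.17 and Nars2 0.01, and here the ratio of the pair (log2 Nars1 minus log2 Nars2) was 2.89 ± 0.08 with vehicle and 2.71 ± 0.05 with HDACI, the only pair whose ratios did not overlap. Arginine (Rars1 -0.13, Rars2 0.05) and tyrosine (Yars1 -0.14, Yars2 -0.02) followed. For valine both enzymes lay low (-0.16 and -0.12). Serine and threonine were the exceptions, with Sars1 at -0.05 against Sars2 at -0.06 and Tars1 at -0.03 against Tars2 at -0.04.

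Cytosolic genes with a promoter match (7 genes) had a median difference of -0.09 and those without (10 genes) -0.07, with 2 called lower at an unadjusted p under 0.01 in each set. Nars1 and Yars1 had a match and Wars1 and Vars1 had none, while Tars1, whose match lay 27 bases upstream, had -0.03. Groups did not overlap for 4 of the 7 genes with a match (Nars1, Yars1, Aars1 and Iars1) and for 2 of the 10 without. Over all genes 0.855% were called lower and 3.6% had all HDACI arrays below the vehicle arrays. Among genes above the median signal these shares were 1.19% and 5.43%.

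Further genes of tRNA charging and its regulation were examined as lists, to be read against the 1.46% of all genes called in either direction at an unadjusted p under 0.01, a share at which 0 called is near the background for lists of this size. Of 3 scaffold genes of the multisynthetase complex, Aimp1 had -0.13 (standard error 0.05, unadjusted p = 0.0225 from limma), with vehicle arrays at 11.15, 11.23, 11.24 and 11.14 and HDACI arrays at 11.04, 11.11, 10.99 and 11.11, which did not overlap. Eef1e1 had -0.05 and Aimp2 0.02. Of 10 further measured genes of tRNA charging, editing and processing 0 were called, with a median of -0.0051. The smallest p belonged to Aarsd1 (-0.11), an alanyl-tRNA editing factor, and Ptrh2 (-0.10), a peptidyl-tRNA hydrolase. Groups did not overlap for Ptrh2, as for Aimp1, where 3.6% of all genes were lower without overlap. Elongation factors, which carry charged tRNA to the ribosome and move it along, had 0 called in the cytosol (6 genes, median -0.03, lowest Eef1g at -0.07 and Eef1a2 at -0.05) and 0 in mitochondria (3 genes, median -0.01, Gfm1 at -0.06 and Tufm at -0.01).

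The amino acid response genes other than synthetases, a list of ATF4 targets with ATF4 itself, had 27 measured members. Of these 20 lay below 0, and the median was -0.04. Over all genes 57.9% lay below 0 and the median was -0.01. Slc7a11, the cystine and glutamate exchanger, was the only member called at an unadjusted p under 0.01, against 0.607% of all genes called higher. It read 10.19, 10.80, 10.49 and 10.50 with vehicle and 10.90, 10.94, 11.11 and 11.59 with HDACI, with all vehicle arrays below all HDACI arrays, as for 1.42% of all genes. The difference was 0.64 (standard error 0.17, unadjusted p = 0.00367 from limma). Asns, which makes asparagine, had -0.14 (standard error 0.06, unadjusted p = 0.0332 from limma) with overlapping groups, and Atf4 -0.03. At an unadjusted p under 0.05 the list held 1 gene lower (Asns, 3.7% of the list), against 4.96% of all genes. It held 1 higher (Slc7a11), against 2.79% of all genes. Both counts are near these shares. Of the 8 kinases, phosphatase subunits and partners through which this response is switched on and off 0 were called, with a median of 0.0043, and the smallest p belonged to Eif2s1 (-0.15), the initiation factor subunit they act on, and Ppp1r15b (0.05), a phosphatase subunit. Differences within the response list thus lay on both sides of 0, with 20 below and 7 above. Those of the cytosolic synthetases and of the 3 mitochondrial elongation factors all lay below 0. Whether the response list and the synthetases differ was not tested.

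**Figure D4:**
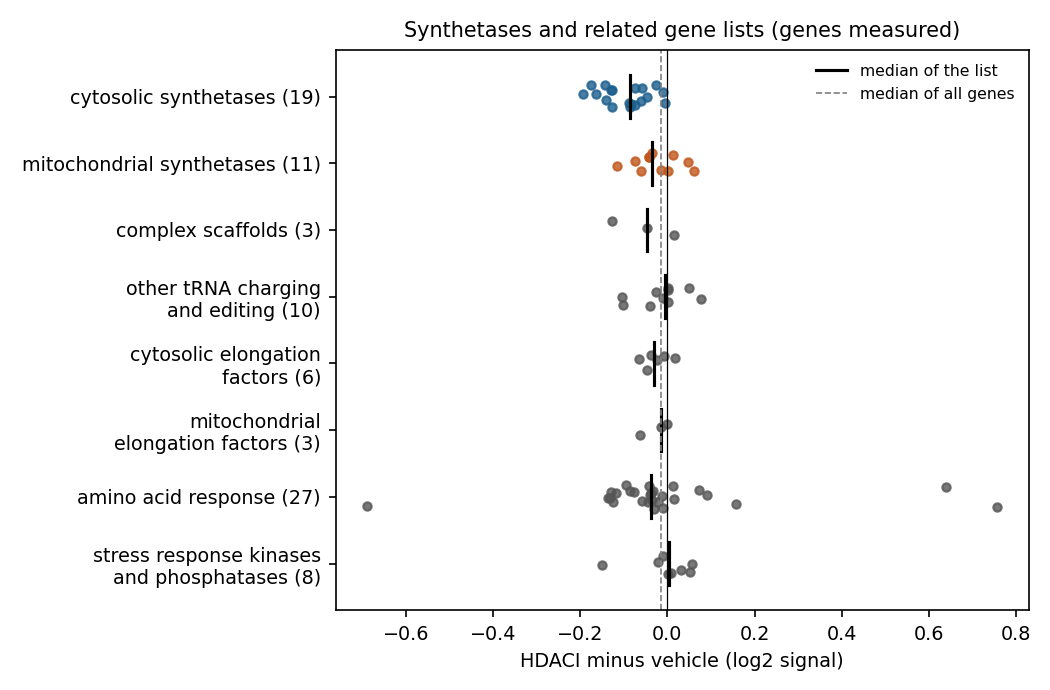
Differences in log2 signal (HDACI minus vehicle, n = 4 and 4; x axis) of single genes in the cytosolic and mitochondrial synthetases and in 6 lists of related genes (y axis, number of measured genes in brackets), with black bars at list medians. Points of the cytosolic synthetases all lie left of 0, with a median of -0.09. The amino acid response list has a median of -0.04 and spreads from Atf3 at -0.69 to Nupr1 at 0.76.

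Arrays resembled each other, with Pearson correlations across genes from 0.992 to 0.998. Markers of the cell types of cord were present, with mean log2 signals of 11.4 to 11.7 for neurons, 11.7 to 11.9 for astrocytes, 12.4 to 12.5 for oligodendrocytes and 9.88 to 10.4 for microglia and macrophages, but several lists differed between groups by as much as the synthetases. Of 9 neuronal markers 8 lay below 0 (median -0.05), with Nefl at -0.12 (unadjusted p = 0.0466 from limma) and Stmn2 at -0.17 (unadjusted p = 0.0766 from limma). All 6 microglial and macrophage markers lay above 0 (median 0.10), with Cd68 at 0.30 (unadjusted p = 0.0190 from limma).

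Motor neuron markers, which belong to ventral cord, were measured for 3 of 5 genes. Their mean ran from 8.32 to 9.64 on vehicle arrays and from 7.86 to 8.59 on HDACI arrays. Slc5a7, the choline transporter, had -0.75 (unadjusted p = 0.0368 from limma), Isl1 -0.23 and Prph -0.93. Of 6 endothelial and mural markers 5 lay above 0 (median 0.07). Des, the intermediate filament of muscle and mural cells, was called higher by 0.67 (unadjusted p = 0.000132 from limma), against 0.607% of all genes called higher. The other markers of this list ran from -0.0024 (Cldn5) to 0.11 (Acta2), and the mural marker Pdgfrb had 0.08. Sensory ganglion markers had means from 6.94 to 7.96 with vehicle and from 6.81 to 7.61 with HDACI. Calca, a peptide gene listed here as a ganglion marker, had -1.65 (unadjusted p = 0.125 from limma). The other ganglion markers did not follow it, with Scn10a at -0.00043, Trpv1 at 0.08 and Mrgprd at -0.10. Which cells gave the Calca signal was not tested. The 2 measured Schwann cell markers ran from 9.66 to 11.69 with vehicle and from 9.81 to 11.84 with HDACI.

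Vehicle replicate 2 stood highest on motor neuron markers (9.64), on the mean of sensory ganglion markers (7.96) and on 11 of the 19 cytosolic synthetases. It also had the highest median over all genes (8.65). It was second to HDACI replicate 2 on Schwann cell markers. Of the ganglion markers only Calca (10.86) was highest on vehicle replicate 2. The motor neuron markers Slc5a7 (10.49), Isl1 (7.22) and Prph (11.20) were each highest on that array too. There Scn10a read 6.04, the lowest of its values, Trpv1 7.53 and Mrgprd 7.41. HDACI replicate 2 stood lowest on 8 of the 19 and on the neuronal markers (11.4). It stood highest on leptomeningeal markers (9.78, against 8.37 to 9.19 on the other arrays), Schwann cell markers (11.84), microglial and macrophage markers (10.4), oligodendrocyte markers (12.5) and endothelial and mural markers (9.69). Without vehicle replicate 2 the calls on Nars1 and Wars1 held and the cytosolic median was -0.09, and without both arrays numbered 2 only Wars1 was called and the median was -0.07. The part of cell composition in the lower cytosolic signal was not tested.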

How the data were processed

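RNA of dorsal ipsilateral cord from 4 HDACI and 4 vehicle rats was labelled with the Ambion Whole Transcript kit and hybridised to Rat Gene 1.0 ST arrays. The deposited values are log2 signals for 29214 probe sets, which the authors made with oligo and RMA (versions not given in the sources used here). Array medians ran from 7.95 to 7.98. Groups and replicate numbers came from sample titles.

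Gene symbols came from the platform annotation, updated through gene IDs in the RefSeq table of GRCr8: 15310 probe sets had 1 symbol, 323 several and 13581 none. Of the listed genes, 1 is not reported here. Probe sets of a gene were averaged, giving 14506 genes, and tested by moderated statistics (lmFit, eBayes; R 4.3.3, limma 3.58.1), two-sided, with no filter or covariate and Benjamini-Hochberg adjustment over all genes. The exact permutation test used all assignments of arrays. The number of arrays limits the precision; the median SD within groups was 0.087. Scripts were tested on simulated data.

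Members, lists, marker genes and the rule for naming genes were chosen with earlier results of these data known, so lists are described by counts and medians without a test. The rule gives values on every array for members with an unadjusted p under 0.01, for the 4 mitochondrial members with the smallest p and for the 2 cytosolic members with the largest p; other members are given by their difference. From each related list it names members with an unadjusted p under 0.01, or otherwise the 2 with the smallest p; Atf4, Atf3, Nupr1, Aimp2, Asns and single marker genes were named after their values were seen. Alternatives were another summary per gene, a fit on probe sets, platform symbols, further normalization or centring, filters on signal, trend and robust moderation, array weights, a replicate block and each array left out.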

Additional observations from a re-analysis of the deposited data

Results flagged for a closer look

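Of 64 sets of 4 arrays (each measured synthetase and both compartment means in each group), 2 held an array whose gap to the next, as a share of the range, passed Dixon's 95% critical value for 4 values; chance gives about 1 in 20. For Tars1 it was vehicle replicate 2, at a log2 signal of 8.68 against 8.48 to 8.50 on the other vehicle arrays. For Iars1 it was vehicle replicate 4, at 10.77 against 10.74 to 10.75.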

How the results depend on the processing

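The cytosolic median stayed between -0.10 and -0.07, the mitochondrial median between -0.05 and -0.02 and their gap between -0.07 and -0.04 over 20 alternatives, each within the spread between arrays, and 0 mitochondrial genes were called and 0 members passed adjustment in any of them. The count of 4 cytosolic genes called lower ranged from 2 to 4 when an array was left out, and was 1 without both arrays numbered 2, a choice made after seeing the data. With the replicate number as a block it was also 1 (Wars1). The sample titles give numbers but do not say that they pair the arrays. Same-numbered arrays' deviations from their group means correlated at -0.27, 0.36, 0.04 and 0.06, and 1 of 4 HDACI arrays correlated best with its own number. So few correlations cannot show whether the arrays were paired. Signs turned for genes near 0. Leaving out each array in turn, Kars1 ran from -0.036 to 0.016, Qars1 from -0.039 to 0.0069, Tars1 from -0.044 to 0.024, Fars2 from -0.029 to 0.037, Nars2 from -0.0094 to 0.043 and Yars2 from -0.038 to 0.0063. With array weights Fars2 had -0.0081 and Yars2 0.012, after a further quantile normalization Kars1 had 0.0041, and without both arrays numbered 2 Tars1 had 0.012, Fars2 -0.00049 and Yars2 0.013.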
